A study of Mus musculus with 10 samples.

Results

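82 protein-coding genes met the rule used here for transcripts highly bound by MOV10 in mouse testis at postnatal day 21 (P21), out of 55421 genes counted in the libraries. They were the protein-coding genes whose share of reads in MOV10 CLIP-seq, in RPM (reads scaled to a common total of reads on genes), was more than 10 times their share in wild type RNA-seq. At least 10 reads were required in each assay, which 240 protein-coding genes reached once the names set aside had been removed, so that the members were 34.2% of those that could have passed. The number of members depends on the depth of the CLIP-seq counts and on this minimum, and was 144 at a minimum of 5 reads. It is not a count of all transcripts that MOV10 highly binds. The paper that reported these data lists many more at its own fold enrichment above 10. 8 other protein-coding genes above 10 (Car3, Parvb, Gnl3l, D10Wsu102e, Rpl10, mt-Co1, mt-Nd5 and mt-Nd6) were set aside by name, as were any with symbols beginning mt-, Rpl, Rps or Hist. The members were chosen by their CLIP-seq and wild type RNA-seq counts, so the ratios describe them and carry no test.

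CLIP-seq (cross-linking and immunoprecipitation followed by sequencing) was done on wild type P21 testes exposed to ultraviolet light, with an antibody against MOV10, in 4 libraries numbered 1, 2, 3 and 5. RNA-seq of poly(A)-selected testis RNA was done on 3 wild type libraries (numbered 1, 2 and 3) and 3 Mov10-/- libraries (numbered 2, 3 and 4), each from a pair of P21 testes. The Mov10-/- mice lack MOV10 in every tissue, after Actb-Cre, which is active throughout the body, removed a floxed run of exons that encodes a helicase domain. The Mov10 mutant mice were on a mixed background of 129, C57BL/6 and FVB. The strain of the wild type mice in each assay is not given separately in the sources used here. The CLIP-seq libraries held 3404 to 4934 reads on genes and the RNA-seq libraries 5083407 to 9230540. In CLIP-seq 99.5% to 99.6% of the reads counted were listed as not aligned, and 5.05% to 10.1% of the aligned reads fell on genes, against 63.3% to 66.4% in RNA-seq. The counts of CLIP-seq replicates 1, 2 and 3 lay closer together than sampling noise allows (chi-square over degrees of freedom of 0.223 to 0.237), so these 3 were counted as 1 library, which left 2 separate CLIP-seq libraries. RNA was taken from the main radioactive band and from a stretch of the membrane above it, and the position behind each library is not given in the sources used here, so a difference between libraries and a difference in position cannot be told apart.

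MOV10 is a cytoplasmic RNA helicase that moves along RNA from 5′ to 3′. It is found with UPF1, the helicase of nonsense-mediated decay, and with the Argonaute proteins that carry microRNAs, and it restricts retrotransposons. Its germ-cell relative MOV10L1 acts in the piRNA pathway of the testis.

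By the rule that chose them, the members carried a larger part of the CLIP-seq reads on genes than of the wild type RNA-seq reads. They took 12.8% of the reads on genes in CLIP-seq replicate 1, 12.9% in replicate 2, 13.2% in replicate 3 and 10.3% in replicate 5, against 0.652% to 0.835% in the wild type libraries. They took 0.783% to 0.986% in the Mov10-/- libraries, which the rule did not use but which hold RNA of the same tissue and age. The ratio ran from 10.1 to 50.1 for all members but Pax1, with a median of 13.9 over the 82. 22 members lay between 10 and 12, 31 between 12 and 15, 12 between 15 and 20, 10 between 20 and 30, and 6 between 30 and 60.

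The depth of the CLIP-seq libraries set the precision of each ratio. 1 read stood for 203 RPM in replicate 5 and up to 294 RPM in the others, and a member had 10 to 67 CLIP-seq reads, with a median of 18.5. Counted over the 2 separate libraries, with replicates 1 to 3 as their mean, this came to 3 to 37 reads. The 95% Poisson interval of the ratio lay wholly above 10 for 17 members and wholly above 5 for 58. It takes these reads, with the mean rounded, as 1 Poisson count, and so is approximate. These intervals use the reads that chose the members, so they describe precision and are no test of a ratio above 10. They cover counting error in CLIP-seq only. Whether copies of a molecule were removed before counting is not given in the sources used here, so reads need not be separate molecules. Just inside the threshold were Nfat5 at 10.1, Kctd12 at 10.1 and Gng12 at 10.2, and just outside it Pnkd at 9.92, Calu at 9.77 and Zc3h7b at 9.57.

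**Figure D1:**
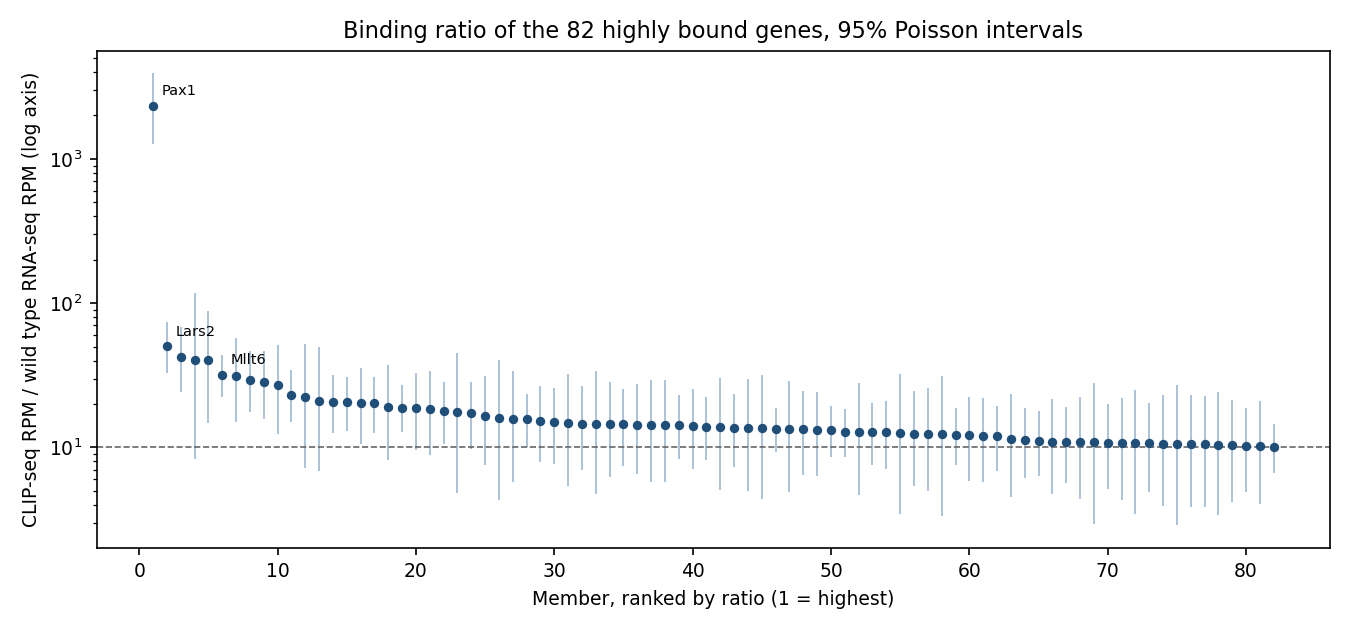
CLIP-seq level over wild type RNA-seq level, both in RPM (log axis), for the 82 members ranked from highest to lowest. Bars are approximate 95% Poisson intervals of the CLIP-seq reads, and the dashed line is the threshold of 10. Pax1 stands alone at 2336, Lars2 follows at 50.1, and most intervals reach below 10.

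Among transcription and chromatin factors, which gave 11 members, Mllt6 had the most reads of any member over the 2 separate CLIP-seq libraries. Mllt6 encodes AF17, a fusion partner of MLL in leukaemia that binds the histone methyltransferase DOT1L. It had 14, 12, 12 and 24 reads in CLIP-seq replicates 1, 2, 3 and 5, against 132, 106 and 157 RPM in the wild type libraries. Its ratio of 31.9 had an interval of 22.5 to 44.0. Mllt6 (ENSMUSG00000038437) lies on chromosome 11, from 97663414 to 97685463 of mm10. Of 20 listed partners of DOT1L and MLL fusions, 4 had enough reads for a ratio and Mllt6 alone passed 10. Kmt2a was at 4.23, Aff4 at 2.47 and Kmt2d at 1.45. Of 57 Polycomb, Trithorax and related chromatin genes, none was a member, although 31 had a CLIP-seq read, and Nsd1 at 6.67 and Setd1b at 5.25 were the only ones with enough reads.

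Pax1, a paired-box transcription factor of the early skeleton, thymus and pharyngeal pouches, had the highest ratio and the fewest RNA-seq reads. It had 0, 1, 1 and 13 reads in CLIP-seq replicates 1, 2, 3 and 5, and 2, 12 and 0 in the wild type libraries. 13 of its 15 CLIP-seq reads and 12 of its 14 wild type reads thus came from 1 library each. All 3 Mov10-/- libraries were at 0, so no ratio over them could be formed. The ratio of 2336 had an interval of 1277 to 3919 for counting error in CLIP-seq alone, with a wild type mean of 0.606 ± 0.851 RPM (SD, n = 3). An antisense gene, AI646519, overlaps Pax1, and whether the counting kept the strands apart is not given in the sources used here. Pax1 was also the single member below the low-count filter of the genotype comparison.

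Zfp248, a zinc finger gene, had only 3, 3, 1 and 4 CLIP-seq reads but one of the lowest wild type levels, at 15.1, 16.4 and 22.5 RPM. Its ratio of 40.3 had an interval of 14.8 to 87.7. Nfat5, the factor that turns on genes in hypertonic stress, was at the other end. It had 10, 10, 13 and 17 CLIP-seq reads and 354, 259 and 362 RPM in wild type, the highest mean level of any member. The remaining factors were Foxn3, Creb3l2, Epas1 (HIF-2α, of the response to low oxygen), Zfp516, Zbtb20, Gatad2b (a subunit of the NuRD complex) and Brwd3, at ratios of 10.7 to 17.3.

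6 members act on RNA or in translation, with Lars2 the highest of them and second of all members. Lars2 encodes the mitochondrial leucyl-tRNA synthetase. It had 3, 3, 5 and 22 reads in CLIP-seq replicates 1, 2, 3 and 5, so that its ratio of 50.1 (interval 32.8 to 73.5) was 18.9 in replicates 1 to 3 and 81.4 in replicate 5. Both values were above 10. The other members here were Mex3a and Rbms2, which bind mRNA, the splicing factor Srsf11, Larp1b of the La-related family and the Sm-like protein Lsm12, at ratios of 10.6 to 14.6.

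Proteins known to work with MOV10 were not among the members. Of 39 listed RNP partners, 21 had a CLIP-seq read. Most had too few reads to become members, and the 4 with enough all had a ratio between 1 and 10. These were the zinc finger proteins Zc3h7b at 9.57 and Zc3h7a at 7.998, Tnrc6b at 6.51, the partner of Argonaute, and the helicase Ddx6 at 3.90. No CLIP-seq library held a read of Mov10, Upf1 or Mov10l1 (0 in each), which allows up to 608 RPM for each in replicate 5 and up to 881 RPM in the shallowest library.

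Receptors and signalling proteins gave 16 members, the most of any role, and included the receptors Igf1r and Insr. Igf1r, the receptor of insulin-like growth factor 1, had 14, 11, 12 and 8 CLIP-seq reads and a ratio of 20.7 (interval 12.6 to 32.0). Insr, the insulin receptor, had 6, 4, 6 and 1 reads and a ratio of 13.3 (interval 4.89 to 29.0). Its ratio was 23.4 in replicates 1 to 3 and 3.20 in replicate 5, from a single read. Bmpr2, the type II receptor of bone morphogenetic proteins, stood at 14.5 from 11, 9, 8 and 3 reads. It was the only member among 61 listed genes of Wnt, Notch and TGF-β signalling, of which Ski at 6.50 was the other with enough reads. Prkce, protein kinase C epsilon, was at 26.9 from 5, 3, 6 and 4 reads, and shares exons with another annotated gene on the same strand. Ulk3, a kinase of Hedgehog signalling and autophagy, was at 22.3 from 3, 2, 3 and 2 reads. Ywhag, the 14-3-3 gamma adaptor, had 5, 3, 3 and 19 reads and a ratio of 20.5.

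Adhesion, matrix and guidance genes gave 11 members, led by Lpp, a LIM-domain protein of focal adhesions. Lpp had 17, 11, 10 and 5 CLIP-seq reads, a ratio of 29.5 (interval 17.5 to 46.6) and an antisense gene across its exons. Igsf9b, an adhesion molecule of inhibitory synapses, followed at 28.2 from 5, 3, 3 and 11 reads. Spock2, a testican proteoglycan, and Adgrl1, the adhesion receptor latrophilin 1, were among the evenly covered members, with 12, 12, 11 and 21 and with 11, 12, 10 and 17 reads. Their ratios were 13.4 and 12.9. Itgav, the integrin alpha V chain, was at 13.6 and was the only member among 57 listed matrix and adhesion genes. Nid1 at 4.36 and Itgb1 at 4.38 were the other 2 with enough reads.

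6 members stood on a list of 75 genes of neurogenesis and axon guidance, the most of any list. This list had been written with earlier results of these data known, so the count is not independent evidence. Syt7, the calcium sensor synaptotagmin 7, had 8, 7, 8 and 17 reads and a ratio of 23.2 (interval 14.99 to 34.2). Sema5a, a semaphorin, was at 18.7, Gpm6b, a membrane glycoprotein of neurons and glia, at 14.9, Spock2 at 13.4, Gas7 at 13.2 and Srgap3, a Slit-Robo GTPase-activating protein, at 12.7. 3 more of the list, Nfic at 8.95, Lrp8 at 7.56 and Plxna1 at 3.12, lay between 1 and 10. Of 12 neuronal marker genes, none had a CLIP-seq read and 6 passed the low-count filter in RNA-seq. Of 15103 protein-coding genes above 1 RPM in all wild type libraries, 11738 likewise had no CLIP-seq read. At this depth a lack of reads says little about binding. No gene of the 42 listed for actin and muscle was a member, and only Myo10 at 3.48 and Tns1 at 3.34 had enough reads for a ratio.

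Enzymes, transporters and lysosomal proteins gave 15 members. Lyz2, the lysozyme of macrophages, had 3, 4, 3 and 13 CLIP-seq reads and 57.6, 36.2 and 33.5 RPM in wild type, for a ratio of 42.1 (interval 24.1 to 68.4). It was the only member on any of the 11 lists of cell type markers. Mgat5, which branches N-glycans, had the most CLIP-seq reads of all members, with 16, 17, 22 and 12 and a ratio of 18.9. Slc26a2, a sulphate transporter, had 11, 10, 11 and 11 reads and a ratio of 20.2. Fads2, the delta-6 desaturase, had 11, 11, 10 and 13 reads and a ratio of 15.7. These 3 genes together with Mllt6, Spock2, Adgrl1 and Nfat5 were the 7 members that reached 10 reads in each of the 4 CLIP-seq libraries.

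10 members belong to membrane traffic and the cytoskeleton, among them the endophilin Sh3gl2, Rab11fip1, Stx8 and Coro1c. 4 act in ubiquitin pathways, phosphatase scaffolds or the spindle checkpoint (Usp46, Fbxw2, Ankrd28 and Mad2l1). 9 had no assigned role, including Ghdc with 5, 2, 3 and 0 CLIP-seq reads and a ratio of 40.3 (interval 8.31 to 118). Gm14226 was at 31.2 from 2, 2, 4 and 7 reads, and its RNA-seq reads were uneven within both genotypes, at 118, 257 and 524 in wild type and 17, 305 and 488 in Mov10-/-.

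Each member was next read in the CLIP-seq libraries apart. 31 members were above 10 both in replicates 1 to 3 and in replicate 5, 40 only in the former and 11 only in the latter. The median ratio of the members was 17.1 in replicates 1 to 3 and 10.4 in replicate 5. 5 members had no read in replicate 5 (Ghdc, Crim1, Mex3a, Ttc7b and Mad2l1). 1 library stood on each side, so no test of these differences is given.

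The members named next were picked for a low p in an exact binomial test between the 2 sources, so their contrasts are extremes. Lars2 had 22 reads in replicate 5 against a mean of 4 in replicates 1 to 3, Pax1 had 13 against 1 and Ywhag had 19 against 4. On the other side, Foxn3, a forkhead repressor, had 3 reads in replicate 5 against 12, Sh3gl2 had 1 against 8 and Ankrd28 had 4 against 13. Ttc7b and Mex3a each had 0 against 5. The highest ratios after Pax1, those of Lars2 and Lyz2, drew most of their reads from replicate 5.

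**Figure D2:**
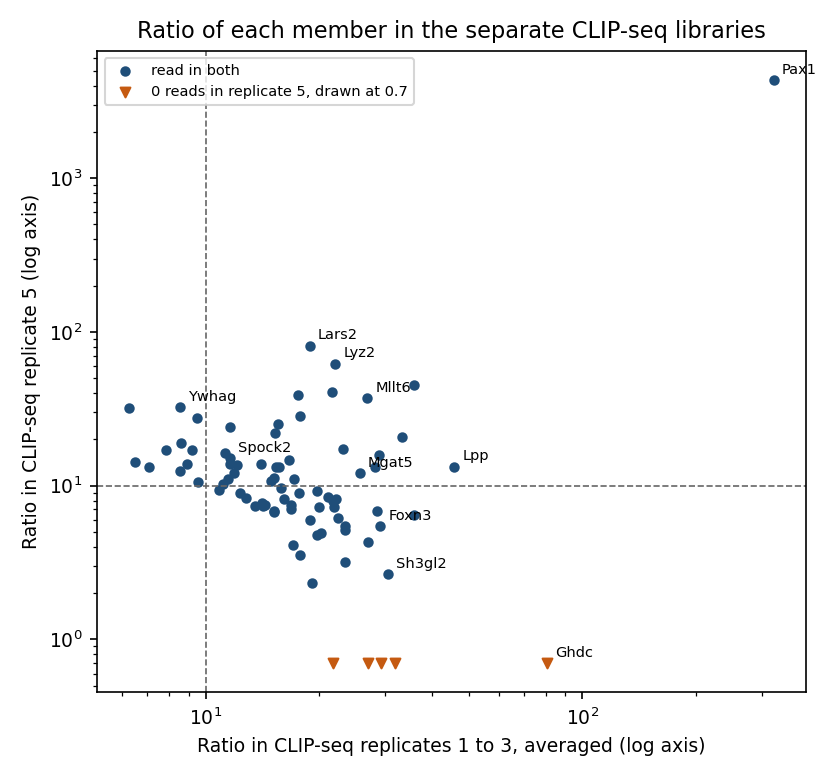
Ratio of each of the 82 members in CLIP-seq replicates 1 to 3 (averaged, x axis) and in replicate 5 (y axis), both on log axes and both over the same wild type mean, with the threshold of 10 as dashed lines. 31 members lie above 10 on both axes, and 5 without a read in replicate 5 are drawn as triangles at the lower edge.

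To read the ratio in libraries that had not chosen the genes, the rule was applied to part of the libraries alone. With CLIP-seq replicates 1 to 3 and wild type replicate 1, 82 genes were chosen, 58 of them members. In replicate 5 over wild type replicates 2 and 3, 25 of these 82 (30.5%) were above 10, with a median ratio of 7.35. Of the 71 genes that had enough reads but were not chosen, 9 (12.7%) were above 10, with a median of 4.12. Chosen in replicate 5 and wild type replicate 1, 21 genes passed, of which 13 (61.9%) were above 10 in replicates 1 to 3 over wild type replicates 2 and 3, at a median of 12.4, against 0 of 8 not chosen. The genes chosen in 1 set of libraries had a higher median ratio in the others than those not chosen, and most of the 82 fell below 10 there. A gene with little RNA in 1 wild type library tends to have little in the others, so a low denominator carries over. The median wild type level was 76.2 RPM in the members and 154 RPM in the genes with a ratio of 1 to 10. This reading is therefore no independent support for the choice, and the part of the CLIP-seq reads in it was not tested.

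The denominator and the library total also set the ratio. With the Mov10-/- libraries as the denominator, 66 of the 81 members with reads there stayed above 10, at a median of 12.3. With all mapped reads in place of reads on genes as the total, 1 member remained above 10, and with TMM (trimmed mean of M-values) scaling across both assays 3 remained, so the ratio ranks genes within this experiment and its absolute size depends on the total. The members' median level was 15.8 RPKM (RPM per kilobase of transcript) in wild type, at the 50.2 percentile of all tested protein-coding genes. It was 32.6 RPKM for the 157 genes with a ratio of 1 to 10 (moderately bound). The wild type level is the denominator of the rule, so the rule itself favours a lower level in members than in moderately bound genes.

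The 3′ untranslated regions (3′UTRs) of members, which the rule did not use, were long beside those of all tested genes, while their order against moderately bound genes depended on the transcript chosen. In the transcript with the longest coding sequence, the 3′UTR had a median of 3182 nt in the 82 members, 2399 nt in the 157 moderately bound genes and 863 nt in the 15711 tested protein-coding genes with a transcript model. It made up a median of 60.2%, 46.2% and 33.4% of the transcript. Taking the median over all coding transcripts of a gene, the 3′UTR had 1098 nt in members, less than the 1248 nt of moderately bound genes, and 532 nt over all, at shares of 40.9%, 32.7% and 26.01%. In the transcript with the longest 3′UTR the shares were 63.9%, 59.3% and 38.8%. The moderately bound genes had passed the same minimum of reads, which longer transcripts reach more easily, and their transcripts as a whole were longer than those of members (5488 nt against 5014 nt). The coding sequence was shorter in members, at 1550 nt against 1989 nt, and 1389 nt over all. In 58 of the 82 members (70.7%) the 3′UTR was more than 50% of the transcript, as in 45.9% of moderately bound and 29.1% of all tested genes. The longest were those of Zbtb20 with 23858 nt, Lpp with 13257 nt and Igsf9b with 11568 nt. Syt7 and Phactr1 had none in the transcript used. The counts give reads per gene, so where in a transcript the CLIP-seq reads lay was not analysed here.

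**Figure D3:**
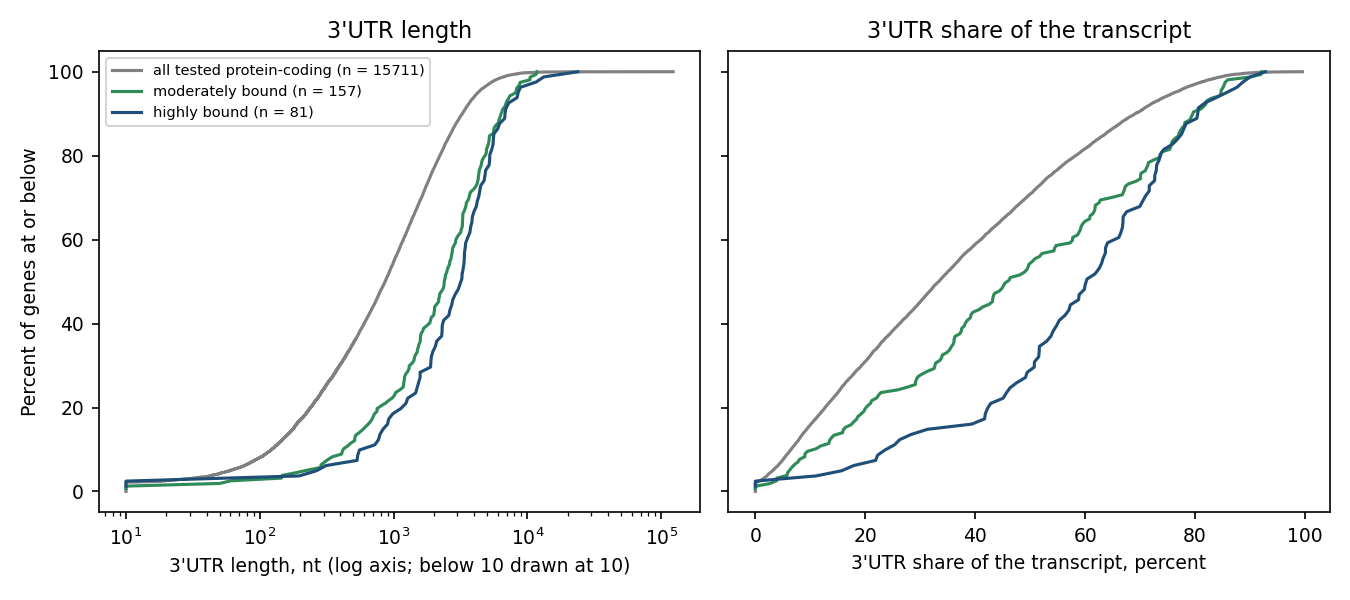
Cumulative distributions of 3′UTR length in nt (log axis, left) and of the 3′UTR's share of the transcript in percent (right) for all tested protein-coding genes, the moderately bound genes and the 81 highly bound genes that passed the low-count filter. All values are from the transcript with the longest coding sequence, in which the highly bound genes lie to the right of both other sets over most of each panel, unlike the 3′UTR length over all coding transcripts (1098 nt against 1248 nt in moderately bound genes).

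Base composition differed little. The median GC content of the 3′UTR was 43.2% in members, 44.6% in moderately bound genes and 44.6% over all. Since MOV10 is found with Argonaute, 3′UTRs were searched on the transcript strand for the match to bases 2 to 8 (the seed) of microRNAs known from testis. The mature sequences and the matches in the members of highest ratio that hold one are shown because they are what was counted. The seed is in capitals in the microRNA and its match in the 3′UTR. Sequences are from RefSeq for the microRNAs and from the GENCODE M21 transcripts of GRCm38 (mm10) for the members.
mmu-let-7a-5p: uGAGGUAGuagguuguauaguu
Lars2, 3′UTR positions 559 to 565 of 986: tggctctgtgCTACCTCcctagaatac
Zfp248, 3′UTR positions 1437 to 1443 of 1577: tttttcttagCTACCTCtatgtcaatc
Igsf9b, 3′UTR positions 9005 to 9011 of 11568: cttagtttggCTACCTCtgtctgttat
mmu-miR-449a-5p: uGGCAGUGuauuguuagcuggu
Ywhag, 3′UTR positions 979 to 985 of 2586: gtctcagtgtCACTGCCtgttgaatgt
1700025G04Rik (first of 2 matches), 3′UTR positions 1580 to 1586 of 8870: cgatcagccaCACTGCCtgccaccttg
Ppp1r16b, 3′UTR positions 485 to 491 of 4471: gtcttggcacCACTGCCaactggcttc

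17 of the 80 members with a 3′UTR (21.2%) held the let-7a match CTACCTC, against 16.7% of moderately bound and 8.77% of all tested genes. Per kilobase of 3′UTR the 3 sets were close, at 0.0701, 0.0660 and 0.0724 matches. The match to miR-449a, CACTGCC, was in 27.5% of members and 14.8% of all genes, but at 0.110 and 0.130 per kilobase. The matches to miR-30a, miR-17, miR-202 and miR-29a likewise stood in a larger share of members than of all genes, with 0.0568 to 0.114 matches per kilobase in members and 0.0565 to 0.117 over all. AUUUA, the core of AU-rich elements, gave 1.84 per kilobase in members, 1.81 in moderately bound genes and 1.81 over all. GGGG, overlapping runs counted each, gave 4.25, 4.27 and 4.05. AAUAAA, the polyadenylation signal, gave 0.785, 0.798 and 1.15.

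UGUANAUA, the element bound by Pumilio proteins, stood in 48.75% of members, 48.1% of moderately bound and 22.4% of all tested genes. Per kilobase it differed most from the moderately bound genes, at 0.194 in members, 0.328 in moderately bound genes and 0.235 over all. In the last 500 bases of the 3′UTR, where the length searched was equal, it stood in 7.79% of 77 members, 21.6% of 139 moderately bound genes and 13.8% of all. In the same window let-7a matches stood in 6.49%, 5.04% and 3.53%, miR-449a matches in 1.30%, 7.19% and 5.83%, AUUUA in 63.6%, 67.6% and 58.4% and AAUAAA in 76.6%, 82.7% and 75.4%. These shares are descriptions of letters, and no microRNA or protein binding was measured at them.

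The genotype comparison asked whether RNA levels of the members changed without MOV10. Mov10 itself, which checks the labels, fell from 110 ± 11.9 to 27.4 ± 1.38 CPM (SD, n = 3 each; CPM is RPM after TMM scaling of the RNA-seq libraries), with 29.0, 26.6 and 26.7 CPM in the Mov10-/- libraries (edgeR adjusted p = 0.00552). Upf1 and Mov10l1 stood at log2 fold changes of 0.22 ± 0.18 and 0.12 ± 0.12 (SE), with edgeR adjusted p of 0.543 and 0.614. 81 of the 82 members passed the filter of 1 RPM in at least 3 libraries. A call needed more than a 2-fold change together with a Benjamini-Hochberg adjusted p below 0.05 (quasi-likelihood test of edgeR). No member was called, and the only gene called of 20240 (0.00494% lower and 0% higher) was Mov10. Under the same thresholds DESeq2 called 4.88% of all genes lower and 0.252% higher, edgeR's exact test 5.09% lower and 0.346% higher, and neither called a member. None of the 81 members tested differed by more than 2-fold either way. Pax1, left out by the filter, had 14 reads over the wild type libraries and none in Mov10-/-. The wild type libraries of this comparison were also the denominator of the rule.

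Most members, like most moderately bound genes, had a slightly higher mean in Mov10-/- testes. The log2 fold change was above 0 for 66 of 81 members (81.5%), against 119 of 157 moderately bound genes (75.8%) and 53.8% of all genes tested. Its median was 0.19 in members, with a range from -0.35 to 0.61, against 0.13 over the moderately bound genes and 0.03 over all. At an unadjusted p under 0.05, 12 members were higher (14.8%, against 5.57% of all genes) and 0 were lower (against 11.9%), beside 19 higher and 1 lower of the 157 moderately bound genes. In 16 members (19.8%) all 3 Mov10-/- values exceeded all 3 wild type values, against 11.9% of all genes tested, and in 1 member they were all lower, against 14.1%. Among the 157 moderately bound genes this held for 44 and 4, so that the first count was no larger a share in members than in moderately bound genes. With members chosen over the Mov10-/- libraries the median was 0.19, and chosen over wild type replicate 1 and compared with wild type replicates 2 and 3 it was 0.24.

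The replicates numbered 2 stood furthest apart in the members' levels. Wild type replicate 2 was the lowest wild type library for 61 of 81 members (75.3%, against 43.5% of all genes), and Mov10-/- replicate 2 was the highest of its genotype for 61 (75.3%, against 36.8%). The median member, relative to its wild type mean, stood at log2 values of 0.10, -0.24 and 0.06 in wild type replicates 1, 2 and 3 and at 0.37, 0.02 and 0.15 in Mov10-/- replicates 2, 3 and 4. The median fold change was 0.09 without wild type replicate 2 and 0.09 without Mov10-/- replicate 2. Without both, it was -0.0016, close to the median over all genes (-0.0030). This setting was chosen after seeing that these libraries were the lowest and the highest, so leaving them out had to narrow the difference. It had 2 of 81 members higher and 1 lower at an unadjusted p under 0.05, with 2.73% of all genes higher and 5.79% lower. Of the members, 5 were higher at that p without wild type replicate 2 (3.02% of all genes), 6 without wild type replicate 3 (5.89%), 7 without Mov10-/- replicate 2 (3.71%) and 7 without Mov10-/- replicate 3 (3.44%).

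**Figure D4:**
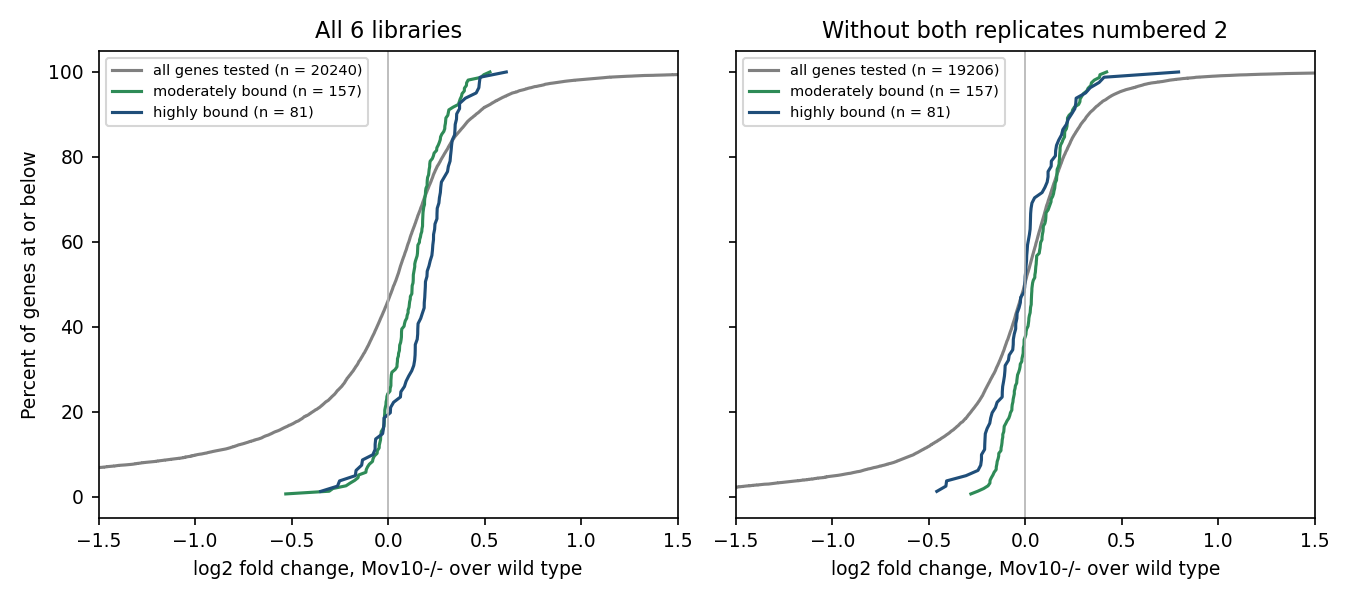
Cumulative distribution of the log2 fold change of Mov10-/- over wild type for all genes tested, the moderately bound and the highly bound genes, with all 6 RNA-seq libraries (left) and without both replicates numbered 2 (right). The highly bound genes have a median of 0.19 on the left and lie around 0 on the right.

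Markers of spermatids moved in the same libraries. Of 29 spermatid marker genes tested, 0 were higher and 23 lower at an unadjusted p under 0.05, against 5.57% and 11.9% of all genes tested. The median log2 fold change of these markers was -2.02. Their summed level was 1603, 2859 and 1318 CPM in wild type replicates 1, 2 and 3 and 853, 1297 and 1029 CPM in Mov10-/- replicates 2, 3 and 4. The summed level of the members was 8207, 6753 and 7964 CPM and 9566, 8146 and 8396 CPM. The library with the most spermatid RNA thus had the least member RNA, and that with the least spermatid RNA the most. In whole testes, fewer cells of a type and less RNA per cell cannot be told apart, and the part of cell composition in the members' levels was not tested.

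Markers of somatic cells, other than Leydig cells and macrophages, were more often higher than lower at the same unadjusted p. Over all genes tested, 5.57% were higher and 11.9% lower at that p. Of 16 Sertoli cell markers tested 7 were higher and 0 lower, from 1123 to 1337 CPM in wild type to 1410 to 1676 in Mov10-/- in sum, with Rhox8 at 0 throughout. Of 13 peritubular markers 5 were higher, at 822 to 1018 and 1043 to 1336 CPM. Of 13 endothelial markers 4 were higher, at 213 to 243 and 273 to 303 CPM. Adipocyte markers had 4 of 14 higher, macrophage markers 1 higher and 1 lower of 12, skeletal muscle markers 2 of 9 higher, neuronal markers 1 of 6 higher and Leydig cell markers none of 10. Spermatocyte markers, at 2258 to 2368 CPM in wild type and 2162 to 2546 in Mov10-/-, had none of 20 in either direction, and spermatogonial markers 1 of 16 higher. In the gene lists on which members stood, 25 of 57 matrix and adhesion genes were higher and 1 lower, 10 of 61 signalling genes higher and 0 lower, 11 of 70 neurogenesis genes higher and 4 lower, and 2 of 19 DOT1L and MLL partners higher and 1 lower. In the lists without members, 10 of 42 actin and muscle genes were higher and 1 lower, 9 of 57 chromatin genes higher and 0 lower, and 1 of 39 RNP partners higher and 1 lower. No gene of these lists was called at the adjusted threshold.

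The 6 members with the lowest p were all higher in Mov10-/- testes, by 1.22-fold to 1.39-fold. Ttyh3, a chloride channel, stood at 106, 104 and 114 CPM in wild type and 139, 151 and 124 CPM in Mov10-/-. Its log2 fold change was 0.36 ± 0.10 (SE, adjusted p = 0.167 by edgeR's quasi-likelihood test). The genotypes did not overlap for this gene.

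Mllt6 was at 130, 110 and 155 CPM in wild type and 199, 175 and 166 CPM in Mov10-/-, again without overlap, with a log2 fold change of 0.46 ± 0.14 (SE, edgeR adjusted p = 0.179). Lars2 was at 68.3, 44.7 and 51.0 CPM against 71.5, 84.3 and 72.4 CPM, with a log2 fold change of 0.47 ± 0.17 (SE, edgeR adjusted p = 0.218). These were differences of 1.37-fold and 1.39-fold. Adgrl1 (log2 fold change 0.32 ± 0.11, SE), Spock2 (0.29 ± 0.10, SE) and Coro1c, an actin-binding coronin (0.35 ± 0.12, SE), completed the 6, each without overlap between genotypes and at edgeR adjusted p of 0.210 to 0.215. None of the 6 was called under any alternative run.

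Of the members that were lower, C2cd2 had the lowest p, and was the 1 member whose Mov10-/- values all lay under its wild type values. It stood at 36.6, 44.3 and 43.8 CPM in wild type and 34.9, 33.6 and 35.4 CPM in Mov10-/- (log2 fold change -0.26 ± 0.14, SE, edgeR adjusted p = 0.385). It shares exons with Zbtb21 on the same strand. Igsf11, an adhesion molecule (-0.25 ± 0.16, SE), Zfp248 (-0.35 ± 0.24, SE), St7l (-0.17 ± 0.12, SE), Larp1b (-0.14 ± 0.12, SE) and Stx8, a syntaxin (-0.13 ± 0.14, SE), had overlapping genotypes and edgeR adjusted p of 0.458 to 0.660.

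**Figure D5:**
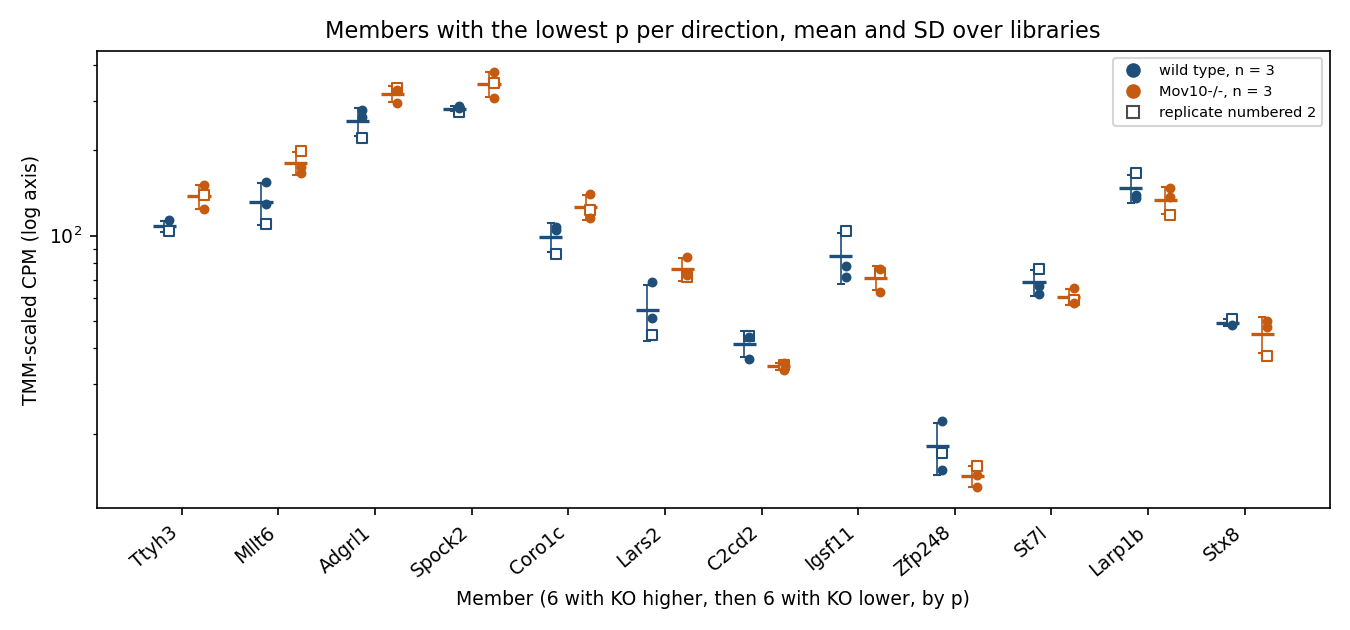
TMM-scaled CPM (log axis) of the 6 members with the lowest p among those higher and the 6 among those lower in Mov10-/- testes, with each library as a point, replicates numbered 2 as open squares, and the mean and SD of 3 libraries as bars. Ttyh3, Mllt6, Adgrl1, Spock2, Coro1c and Lars2 show no overlap between genotypes, while of the 6 others C2cd2 alone shows none.

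By role, the 16 receptors and signalling members all had a log2 fold change above 0, with a median of 0.27 and a range from 0.13 to 0.61, and 2 (Ywhag and Fndc5, the precursor of irisin) were at an unadjusted p under 0.05. Over all members 81.5% were above 0 and 14.8% were higher at that p, against 53.8% and 5.57% of all genes tested. The roles were assigned after the members were seen, so a direction particular to a role was not tested. Nrk, a kinase, had the largest log2 fold change of all members, 0.61 ± 0.37 (SE), but stood at 95.2, 33.9 and 66.1 CPM in wild type and 136, 67.9 and 93.5 CPM in Mov10-/-, with overlap. Igf1r was at 149, 80.8 and 134 CPM against 185, 147 and 139 CPM (log2 fold change 0.37 ± 0.22, SE). Insr and Bmpr2, at log2 fold changes of 0.14 ± 0.21 and 0.27 ± 0.23 (SE), also overlapped between genotypes.

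The 11 adhesion, matrix and guidance members had a median log2 fold change of 0.27, with 9 above 0 and 3 at an unadjusted p under 0.05 (Adgrl1, Spock2 and Prelp, a matrix proteoglycan). Over all 81 members tested these counts were 66 and 12, and over all genes tested the shares were 53.8% and 5.57%. The median was 0.21 for membrane traffic and the cytoskeleton, 0.16 for transcription and chromatin, 0.15 for RNA and translation, and 0.14 for enzymes, transporters and lysosome. Lyz2 differed little, at 56.6, 37.5 and 33.0 CPM in wild type and 55.3, 40.7 and 48.7 CPM in Mov10-/- (log2 fold change 0.19 ± 0.22, SE). Gm14226 had the widest spread, at 13.8, 35.0 and 56.0 CPM against 2.10, 62.4 and 59.96 CPM, with Mov10-/- replicate 2 below all 5 other libraries.

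32 of the 82 members share exonic sequence with another annotated gene, 30 of them with one on the opposite strand and 5 with one on the same strand. Chpt1, for one, overlaps Sycp3, a component of the synaptonemal complex, and St7l overlaps Capza1. Counts of these members are uncertain, since reads of the partner may have been assigned to them.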

How the data were processed

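The deposited files hold unnormalized read counts by Ensembl gene, 1 file per library (10 in all). For RNA-seq (TruSeq Stranded mRNA) the methods name trimming, STAR on mm10 and HTSeq counting on Ensembl v99. The counting of CLIP-seq and the strand setting are not given in the sources used here. Replicates are libraries of separate labels, and nothing states that CLIP-seq libraries came from separate animals.

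RPM was computed over reads on genes. The lines that name no gene, left out, held 99.95% to 99.97% of CLIP-seq and 52.8% to 71.7% of RNA-seq reads, most of CLIP-seq as not aligned. The CLIP-seq RPM was the mean of replicates 1 to 3 averaged with replicate 5, and was divided by the mean wild type RPM, with no pseudocount, where both assays reached 10 reads in sum. Genotypes were compared in edgeR 4.0.16 (TMM, quasi-likelihood test, Benjamini-Hochberg over the 20240 genes that exceeded 1 RPM in 3 or more of the 6 libraries), in R 4.3.3. SE is the log2 fold change over the root of the F statistic. DESeq2 1.42.0, limma 3.58.1 and other normalizations, filters, denominators and left-out libraries were alternatives. Transcript lengths came from GENCODE M21, which matched 55240 of 55421 genes.

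The members and the 18 gene lists were chosen with earlier results of these data known, and the roles after the members were seen. Named were the 12 members of highest ratio, those with at least 10 reads in each CLIP-seq library, the neighbours of the threshold, 6 per direction by genotype p, up to 5 per direction with the lowest p between CLIP-seq sources, and members on the lists. An exact binomial test between CLIP-seq sources was run and called 0 members at an adjusted p under 0.05. It served only to pick names. No result rests on it, since it has 1 library a side and uses the counts that chose the members. Others were named after their values were seen.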

Additional observations from a re-analysis of the deposited data

How the results depend on the processing

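The number of members was 22 with CLIP-seq replicate 5 alone, 144 at a minimum of 5 reads in each assay, 38 at 20, 1 with all mapped reads as the total and 3 with TMM across both assays. It was 69 to 85 with a wild type replicate left out. Members higher at an unadjusted p under 0.05 were 12 (of all genes, 5.57%), and 5 to 15 with a replicate left out (3.02% to 5.94%). Members lower were 0 in each of those. Of all genes, 11.9% were lower with all libraries and 6.47% to 11.7% with a replicate left out. Without a filter on low counts 1 member was lower, beside 11.6% of all genes. The median log2 fold change of members was 0.09 to 0.28 with a replicate left out. Without both replicates numbered 2 it was -0.0016 and reversed, and Larp1b moved from -0.14 to 0.035. There 2 members were higher and 1 lower at an unadjusted p under 0.05, beside 2.73% and 5.79% of all genes. This setting was chosen after seeing the data. Calls of members stayed at 0 under every setting run.

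With the replicate number as a block, the median was 0.30, with 3 of 81 members higher and 1 lower at an unadjusted p under 0.05, beside 1.76% and 7.69% of all genes. The numbers do not pair the libraries. Only 2 numbers are shared, and deviations of same-numbered libraries correlated at -0.46 and -0.34. The cause of these shifts was not tested. CLIP-seq depth limits each ratio, since 1 read is 203 to 294 RPM, and the choice of total moved the members' median ratio from 13.9 to 1.54 (all mapped reads) or 3.04 (TMM).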
